A study of Mus musculus with 22 samples.

Results

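MHC class II presentation was followed through 7 genes: H2-Aa, H2-Ab1 and H2-Eb1, which encode chains of the class II molecules, Cd74, H2-DMa and H2-DMb1, which act on peptide loading, and Ciita, the transcriptional coactivator of the family. The members were named by symbol and taken from a table of 23359 genes, and each has 1 row there. The study sequenced polyA-selected RNA from the hearts of C57BL/6 wild-type male mice of 10 to 14 postnatal weeks, and levels are FPKM, which scale fragment numbers by transcript length and by the mapped total of the library. The 22 libraries hold cardiac fibroblasts after 5 day MI (2 libraries), 10 day swim (3), 4 day swim (3), 10 day TAC (3) or 3 day TAC (3), with 3 day sham (2) and sedentary (3) fibroblasts as controls, and cardiomyocytes of sedentary mice (3). Swim is an exercise group, and TAC and MI are the abbreviations of the labels, which in heart research usually stand for transverse aortic constriction (pressure load) and myocardial infarction. All groups share genotype, strain, sex and age range. The labels do not say whether libraries of a group came from separate mice, so p-values measure the spread between these libraries, which may be technical. No 10 day sham library was analysed here, so 10 day TAC was set against sedentary fibroblasts.

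Class II molecules are heterodimers of an alpha and a beta chain that show peptides from endocytosed proteins to CD4+ T cells. In mice, H2-Aa and H2-Ab1 form the I-A molecule and H2-Eb1 is the beta chain of I-E, whose alpha chain gene is disrupted in C57BL/6. Cd74, the invariant chain, fills the groove until endosomal proteases cut it back to a short peptide, which the H2-DM dimer then exchanges for antigen. Macrophages, dendritic cells and B cells make these proteins constitutively, and interferon gamma can induce them in other cells through Ciita, which is recruited to a conserved promoter module of X and Y boxes.

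That module is shown first because it is the feature of sequence by which the family is known. RefSeq promoter windows (GRCm38.p6) were found for 4 of the 7 members, H2-Aa, H2-Eb1, H2-DMa and H2-DMb1, and were searched on both strands for CTNGNAAC, letters from the start of an X box, followed within 10 to 30 bases by TGATTGG, the inverted CCAAT letters of a Y box. The motifs do not overlap, and their letters were chosen after these promoters had been seen. The 150 bases before the start site follow for the 3 members that hold the pair, 5′ to 3′ on the gene's strand, with both motifs in capitals: H2-Aa at chr17:34287824-34287973 (minus strand), H2-Eb1 at chr17:34305717-34305866 (plus strand) and H2-DMb1 at chr17:34153041-34153190 (plus strand).
H2-Aa: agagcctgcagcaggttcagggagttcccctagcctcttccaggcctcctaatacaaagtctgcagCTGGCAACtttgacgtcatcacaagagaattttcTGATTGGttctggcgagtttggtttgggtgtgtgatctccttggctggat
H2-Eb1: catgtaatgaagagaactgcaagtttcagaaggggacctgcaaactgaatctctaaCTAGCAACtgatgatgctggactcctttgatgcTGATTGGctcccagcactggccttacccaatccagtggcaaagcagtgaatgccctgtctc
H2-DMb1: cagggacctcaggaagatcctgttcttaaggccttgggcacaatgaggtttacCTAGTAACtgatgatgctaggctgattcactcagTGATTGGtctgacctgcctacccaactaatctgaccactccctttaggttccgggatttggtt
The gap between the motifs was 26, 25 and 26 bases in that order. The pair stood in 21 of 32851 promoter windows (0.0639%), while CTNGNAAC alone was in 10.9% and TGATTGG alone in 7.23% of them. H2-Ob, another class II gene of the same region, also held the pair, whereas the windows of H2-DMa and of the neighbours H2-DMb2 and H2-Eb2 did not. Those of H2-DMb2 and H2-Eb2 did hold TGATTGG, and that of H2-Eb2 also held CTNGNAAC, but after TGATTGG and not before it. Before TGATTGG both held letters that miss CTNGNAAC by a letter, ctattaac in H2-DMb2 and ccagcaac in H2-Eb2. The gaps from these to TGATTGG were 26 and 25 bases, as in H2-DMb1 and H2-Eb1. That they were not counted thus rests on the exact letters chosen for the search. A match is a description of letters and not evidence of binding.

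The class II chains were among the well-expressed genes of every fibroblast group. H2-Aa, at chr17:34282750-34287771 of the mm10 build, averaged 395 ± 38.0 FPKM in 4 day swim, 281 ± 75.3 in 10 day TAC, 268 ± 6.20 in 10 day swim and 182 ± 25.7 in 3 day TAC fibroblasts (SD, n = 3 each). It averaged 127 ± 19.4 FPKM after 5 day MI, and the controls averaged 186 ± 21.6 FPKM in 3 day sham (SD, n = 2 each) and 214 ± 118 FPKM in sedentary fibroblasts (SD, n = 3). The sedentary group was wide, with 168, 348 and 126 FPKM in its 3 libraries, and H2-Ab1, H2-Eb1 and Cd74 were also highest in the second of them. In order of level the fibroblast groups ran 4 day swim, 10 day TAC, 10 day swim, sedentary, 3 day sham, 3 day TAC, 5 day MI, and neighbours overlapped except that 5 day MI, at 140 and 113 FPKM, lay below 3 day TAC at 153, 190 and 202 FPKM. H2-Ab1 averaged 288 FPKM after 4 day swim at the top of its order and 93.5 FPKM after MI at its end, and H2-Eb1 147 and 61.4 FPKM in the same groups. Neighbours that did not overlap were 10 day swim above 3 day TAC and sham above MI for H2-Ab1, and sham above 3 day TAC for H2-Eb1.

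The genes of peptide loading had other orders. Cd74 was highest in the controls, with 273 ± 99.7 FPKM in sedentary (SD, n = 3) and 263 ± 11.6 FPKM in sham fibroblasts (SD, n = 2), and lowest after 5 day MI at 139 ± 15.8 FPKM (SD, n = 2), with overlap between all neighbours in its order. H2-DMa averaged 16.0, 12.6, 11.3 and 9.31 FPKM after 4 day swim, 10 day TAC, 3 day TAC and 10 day swim, and 4.71, 3.72 and 2.87 FPKM in sham, sedentary and MI fibroblasts. H2-DMb1 had the same order, and for both genes the one gap between neighbours lay between 10 day swim and sham. Of all genes tested, 29.8% likewise separated TAC and swim from sedentary, sham and MI libraries, in either direction.

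Cardiomyocytes carried far less class II RNA. H2-Aa had 35.0, 16.7 and 17.6 FPKM in sedentary cardiomyocytes, against 168, 348 and 126 FPKM in sedentary fibroblasts. Cd74, at chr18:60803848-60812652, had 28.2, 15.1 and 16.8 FPKM in cardiomyocytes, against 253, 381 and 184 FPKM in fibroblasts. The cell types did not overlap for any of the 6 members tested, as for 78.4% of all genes. All 6 were called lower in cardiomyocytes (limma on log2(FPKM + 1), adjusted p under 0.05), where 77.3% of 10371 genes were called in either direction and 38.6% lower. The log2 differences were -3.69 ± 0.28 for Cd74, -3.10 ± 0.30 for H2-Aa, -3.05 ± 0.28 for H2-Eb1 and -2.87 ± 0.30 for H2-Ab1 (± SE, adjusted p from 3.42e-10 to 3.38e-08). H2-DMa and H2-DMb1 differed by less, -1.30 ± 0.24 and -1.31 ± 0.24 (adjusted p 5.38e-05 and 6.28e-05). At levels near 1 FPKM the pseudocount pulls such differences toward 0: H2-DMa had 1.26, 0.679 and 0.773 FPKM in cardiomyocytes and 3.01, 4.93 and 3.22 FPKM in fibroblasts. Macrophage and monocyte markers were lower along with them, 17 of the 19 tested, and their summed level was 165 to 315 FPKM in cardiomyocytes and 681 to 915 FPKM in sedentary fibroblasts. Their part in the difference was not tested, and in bulk samples fewer cells of a type and less RNA per cell cannot be told apart.

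**Figure D1:**
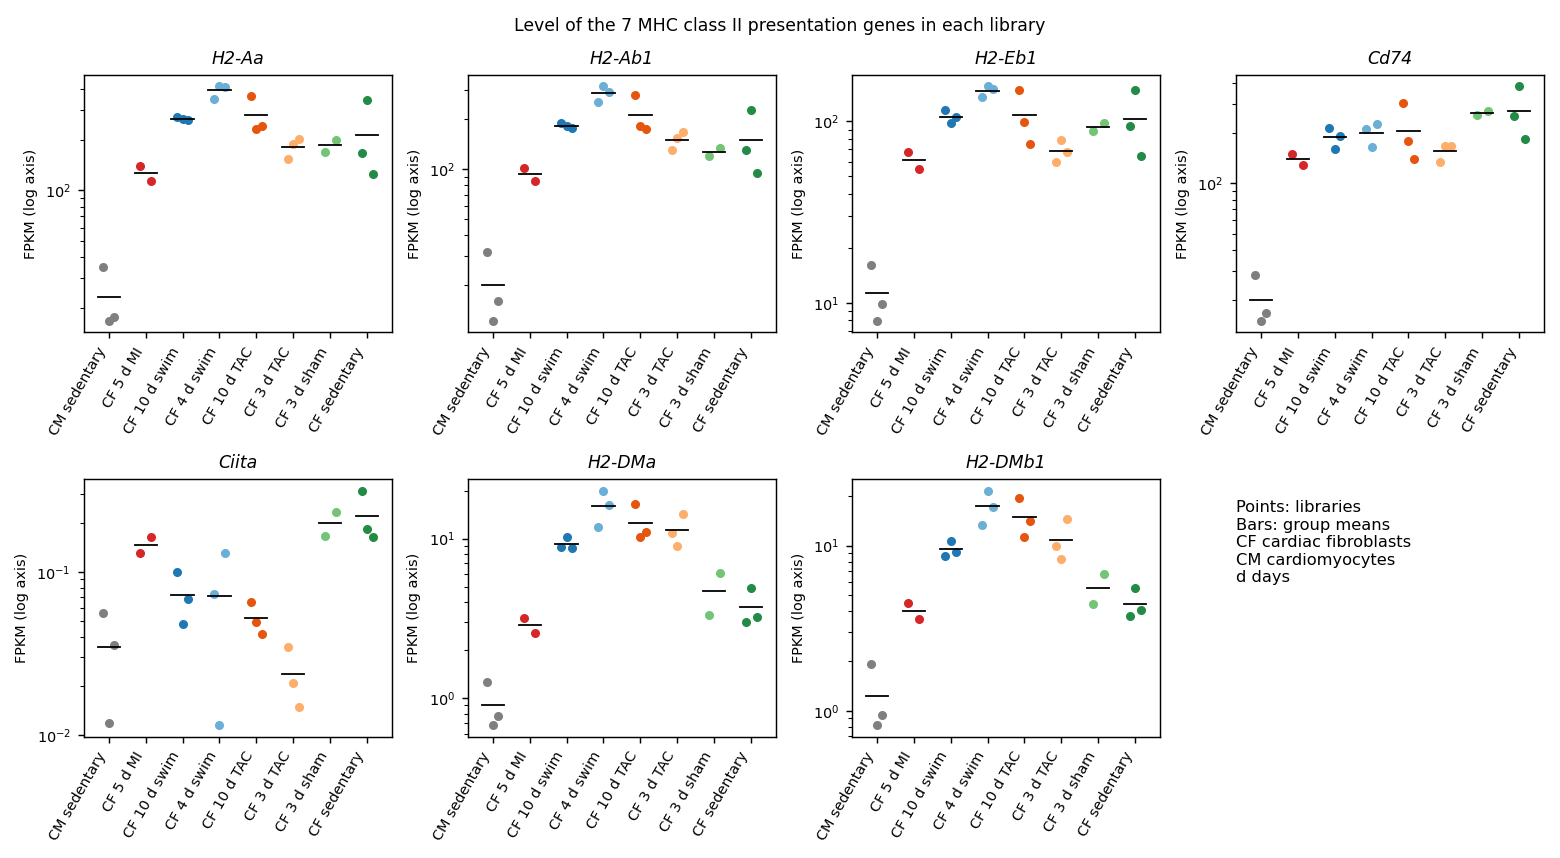
FPKM (log axis) of the 7 members in each of the 22 libraries, by group, with points for libraries and bars for group means. The cardiomyocyte libraries lie lowest for 6 genes, H2-DMa and H2-DMb1 are higher in all TAC and swim libraries than in sedentary, sham and MI libraries, and Ciita runs the other way. These sets were separated in either direction by 29.8% of genes tested and by 13.6% of genes below the filter.

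The H2-DM genes, which encode the peptide exchange factor, were called higher in both swim groups. H2-DMa, at chr17:34122831-34139101, had 11.8, 20.0 and 16.3 FPKM in 4 day swim fibroblasts, against 3.01, 4.93 and 3.22 FPKM in sedentary fibroblasts. H2-DMb1, at chr17:34153190-34160229, had 13.3, 21.5 and 17.2 FPKM after 4 day swim and 3.75, 5.53 and 4.06 FPKM in sedentary fibroblasts. The groups did not overlap for either gene, nor for 62.1% of all genes. The log2 fold changes were 1.85 ± 0.25 for H2-DMa and 1.74 ± 0.24 for H2-DMb1 (± SE, limma adjusted p 8.07e-06 and 1.05e-05), about 3.59-fold and 3.34-fold on the FPKM + 1 scale. H2-DMb1 is 94.6% identical over 1219 aligned bases to its neighbour H2-DMb2, so the split of fragments between the pair is uncertain, and H2-DMb2 was likewise called higher (adjusted p = 2.88e-05). H2-DMa overlaps Brd2 on the opposite strand, and use of strand in counting was not stated.

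The I-A chains were also called higher at 4 days of swim, but these calls did not hold once each library's trend on transcript length and GC content was taken out. H2-Aa had 351, 418 and 416 FPKM in 4 day swim libraries, just above the highest sedentary library at 348 FPKM. H2-Ab1, at chr17:34263226-34269418, had 254, 317 and 294 FPKM, against 131, 227 and 95.3 FPKM in sedentary fibroblasts. Both had a log2 fold change of 1.02, with SE 0.28 and 0.25 (limma adjusted p 0.00431 and 0.00206). The authors' deposited table marks neither chain here (q 0.104 and 0.228), though it marks H2-DMa and H2-DMb1. Without the length and GC trends the values were 0.18 for H2-Aa and 0.08 for H2-Ab1 (adjusted p 0.606 and 0.828), while H2-DMa (1.43) and H2-DMb1 (0.99) were still called. H2-Eb1, at chr17:34305866-34316674, had 136, 156 and 151 FPKM, overlapping the 94.6, 149 and 64.8 FPKM of sedentary fibroblasts, and missed the threshold (0.60 ± 0.26, adjusted p = 0.0554), though without sedentary library 2 it passed (0.90). Cd74, which binds the new chains, was not called: it had 211, 165 and 227 FPKM after 4 day swim and 253, 381 and 184 FPKM in sedentary fibroblasts (-0.39 ± 0.27, adjusted p = 0.219), although without the length and GC trends it was called lower (-1.20, adjusted p = 0.00546).

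As deposited, 4 of 6 members tested were called after 4 day swim, each higher, where 64.5% of 9425 genes were called in either direction and 38.2% higher. The members' median log2 fold change was 1.01, beside 0.127 over all genes. Without the length and GC trends 2 were called higher and 1 lower, and the medians were 0.13 for the members and 0.175 for all genes. At 10 days of swim 2 of 6 were called, both higher, beside 43.6% of all genes called in either direction and 30% higher, with members' median 0.42 and all-gene median 0.136. These were H2-DMa, with 8.90, 10.3 and 8.73 FPKM (1.15 ± 0.25, limma adjusted p = 0.00139), and H2-DMb1, with 8.63, 10.6 and 9.16 FPKM (0.95 ± 0.24, adjusted p = 0.00412). The 10 day swim values of H2-Aa, at 275, 265 and 264 FPKM, lay inside the sedentary range, and the gene was not called (0.46 ± 0.28, adjusted p = 0.19). Without sedentary library 2 H2-Aa (0.88) and H2-Ab1 (0.71) were called, so that 4 of 6 members passed, and without sedentary library 3 Cd74 was called lower (-0.72, adjusted p = 0.0452). Without the length and GC trends H2-DMb1 was lost (0.46, adjusted p = 0.0892), Cd74 was called lower (-0.97, adjusted p = 0.029), and the members' median was -0.16.

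Some macrophage and monocyte markers were higher in the swim groups, as deposited in a share near that of all genes. After 4 day swim 7 of 19 were called, each higher, beside 38.2% of all genes, led by C1qa, C1qc, Folr2 and C1qb, and the list summed to 1800 to 2230 FPKM, against 681 to 915 FPKM in sedentary fibroblasts. After 10 day swim 5 of 19 were higher, beside 30% of all genes, with a summed level of 1270 to 1510 FPKM. Without the length and GC trends 10 of 19 were higher and 1 lower after 4 day swim, where 3529 of 9358 genes were higher. After 10 day swim 3 of 19 were then higher, where 2608 of 9358 genes were. C1qa, a subunit of the complement component that tissue macrophages secrete, changed by 2.86 ± 0.28 on the log2 scale at 4 days (limma adjusted p = 9.51e-07). Csf1r and Emr1, the defining receptors of macrophages, were not called in either swim group. After 4 day swim 7 of 10 pan-leukocyte markers were higher and 2 lower, or 3 and 1 without the length and GC trends. Of 12 endothelial markers 1 was higher and 9 lower (median -1.07), and 9 were also lower without those trends. The part of these markers in the class II result was not tested.

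**Figure D2:**
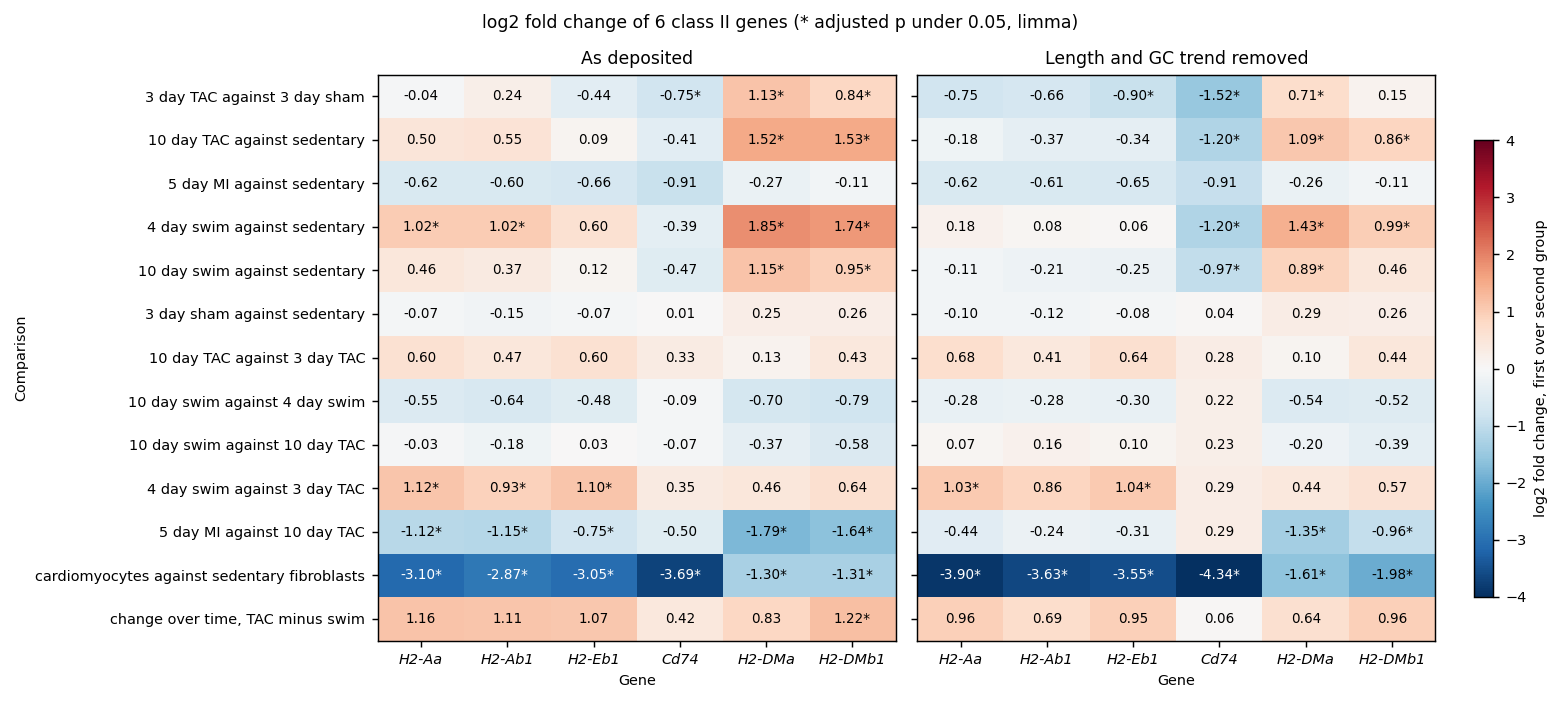
log2 fold change of the 6 tested members (columns) in each comparison (rows, first group over second), as deposited at left and after removal of each library's trend on transcript length and GC content at right, with asterisks at adjusted p under 0.05 (limma). H2-DMa is higher than control in all 4 TAC and swim comparisons in both panels, whereas the 4 day swim calls of H2-Aa and H2-Ab1 against sedentary are present only at left.

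Under TAC, as deposited, the H2-DM genes were called higher and the chains were not called. After 3 day TAC, H2-DMa had 10.9, 8.95 and 14.2 FPKM, against 3.33 and 6.09 FPKM in 3 day sham fibroblasts (log2 fold change 1.13 ± 0.27, limma adjusted p = 0.00217). H2-DMb1 had 9.88, 8.24 and 14.4 FPKM after 3 day TAC, against 4.40 and 6.73 FPKM in sham (0.84 ± 0.27, adjusted p = 0.0127). Cd74 went the other way, with 134, 168 and 167 FPKM after 3 day TAC and 255 and 271 FPKM in sham (-0.75 ± 0.30, adjusted p = 0.0426). Groups did not overlap for these 3 genes or for H2-Eb1, nor for 72.8% of all genes. That made 3 of 6 members called, beside 57.1% of all genes. Of these 3 the authors' deposited table marks H2-DMa (q = 0.0129) but not H2-DMb1 (q = 0.0561) or Cd74 (q = 0.209). The class II chains gave -0.04 ± 0.31 for H2-Aa, 0.24 ± 0.28 for H2-Ab1 and -0.44 ± 0.29 for H2-Eb1 (adjusted p from 0.215 to 0.929). Without the length and GC trends the H2-DMb1 call was lost (0.15, adjusted p = 0.604), H2-DMa was still higher (0.71), H2-Eb1 was called lower (-0.90, adjusted p = 0.0219), and the members' median was -0.71, against 0.0995 with the trends in place. With 2 sham libraries these calls were thin: without sham library 1 none of the 6 passed (H2-DMa 0.78, H2-DMb1 0.58), without 3 day TAC library 3 H2-DMb1 was lost (0.63), and Cd74 was lost whichever of the 5 libraries was left out (-0.81 to -0.65) and with no filter on low values.

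After 10 day TAC, H2-DMa had 16.5, 10.2 and 11.0 FPKM, against 3.01, 4.93 and 3.22 FPKM in sedentary fibroblasts. H2-DMb1 had 19.5, 11.3 and 14.0 FPKM, against 3.75, 5.53 and 4.06 FPKM. Their log2 fold changes over sedentary fibroblasts were 1.52 ± 0.25 and 1.53 ± 0.24 (± SE, limma adjusted p 5.42e-05 and 3.72e-05). They were the 2 of 6 members called, both higher, beside 65.7% of all genes called in either direction and 38.8% higher, and the members' median of 0.52 stood beside 0.124 over all genes. Without the length and GC trends both were still called, but the other 4 were below 0, with H2-Aa at -0.18, H2-Ab1 at -0.37, H2-Eb1 at -0.34 and Cd74 called lower at -1.20, and the medians were -0.26 for the members and 0.158 for all genes. H2-Aa, with 367, 232 and 242 FPKM, overlapped the sedentary libraries (0.50 ± 0.28, adjusted p = 0.126). Without sedentary library 2 H2-Aa (0.91) and H2-Ab1 (0.89) were called, and without 10 day TAC library 1, the highest for all the chains and for Cd74, Cd74 was called lower (-0.72), as it was without sedentary library 3 (-0.66). The authors' deposited table lists H2-DMa and H2-DMb1 as its significant members here, with log2 fold changes of 1.82 and 1.80 (q 5.57e-06 and 5.18e-06). Macrophage and monocyte markers were mixed under TAC: 3 of 19 were higher and 7 lower after 3 day TAC, and 5 higher and 3 lower after 10 day TAC, and their part in the result was not tested.

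After 5 day MI none of the 6 members was called against sedentary fibroblasts (limma), where 11.3% of all genes were. At an unadjusted p under 0.05 there were 3, and the authors' deposited table marks none. H2-Aa had 140 and 113 FPKM after MI, against 168, 348 and 126 FPKM in sedentary fibroblasts (-0.62 ± 0.31, adjusted p = 0.235). Cd74 had 150 and 128 FPKM after MI, against 253, 381 and 184 FPKM in sedentary fibroblasts, and came nearest (-0.91 ± 0.30, adjusted p = 0.0629). All 6 log2 fold changes were negative, with a median of -0.61, beside 0.105 over all genes. Sedentary library 3 decided the count: without it Cd74 (-1.16), H2-Eb1 (-0.95) and H2-Ab1 (-0.88) were called lower. Macrophage and monocyte markers summed to 1120 to 1140 FPKM after MI and to 681 to 915 FPKM in sedentary fibroblasts, with 2 of 19 called higher and 1 lower. In the sham libraries they summed to 1010 and 2150 FPKM.

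The MI libraries were also low beside 10 day TAC. H2-Aa had 140 and 113 FPKM after 5 day MI and 367, 232 and 242 FPKM after 10 day TAC (-1.12 ± 0.31, limma adjusted p = 0.00601). Of 6 members 5 were called lower, beside 57.3% of all genes called in either direction and 30.1% lower: H2-DMa at -1.79 ± 0.27, H2-DMb1 at -1.64 ± 0.27, H2-Ab1 at -1.15 ± 0.28, H2-Aa, and H2-Eb1 at -0.75 ± 0.29, with Cd74 at -0.50 ± 0.30 not called. The authors' deposited table marks the same members except H2-Eb1 (q = 0.0856). With the length and GC trend taken out, H2-DMa (-1.35) and H2-DMb1 (-0.96) were still called and the chains were not (-0.44 to -0.24). Without MI library 2 the H2-Aa call was lost (-0.96), and the H2-Eb1 call was lost in 4 of the 5 fits that left out 1 library, all but the one without 10 day TAC library 3 (-0.91 to -0.49), and with no filter or only the groups compared (both -0.75). Among cell type markers, 4 of 12 endothelial, 3 of 10 cardiomyocyte and 2 of 5 dendritic cell markers were lower after MI, beside 30.1% of all genes. Without the length and GC trends these counts were 8, 0 and 2. Of 19 macrophage and monocyte markers 3 were higher and 5 lower (3 and 2 without the trends). Of 10 pan-leukocyte markers 3 were higher and 2 lower (3 and 0), and of 12 fibroblast markers 6 were higher and 1 lower (4 and 1). Their part in the difference was not tested.

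A direct comparison of the early exercise and early TAC groups called the class II chains but not H2-DM. H2-Aa had 351, 418 and 416 FPKM after 4 day swim, against 153, 190 and 202 FPKM after 3 day TAC (1.12 ± 0.28, limma adjusted p = 0.017). H2-Eb1 had 136, 156 and 151 FPKM after 4 day swim, against 59.6, 78.9 and 67.4 FPKM after 3 day TAC (1.10 ± 0.26, adjusted p = 0.0136). H2-Ab1 had 254, 317 and 294 FPKM after 4 day swim, against 131, 154 and 168 FPKM after 3 day TAC (0.93 ± 0.25, adjusted p = 0.0281). Every swim library lay above every TAC library for these 3 chains, a separation that 25.4% of all genes showed in one direction or the other. They made 3 of 6 members, beside 8.86% of all genes called in either direction and 5.2% higher, and the members' median of 0.78 stood beside -0.00479 over all genes. Cd74 (0.35 ± 0.27), H2-DMa (0.46 ± 0.25) and H2-DMb1 (0.64 ± 0.24) overlapped between the groups and were not called (adjusted p 0.509, 0.298 and 0.115).

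The groups differ in time as well as in treatment, and treatment and time cannot be told apart in this comparison. The length trends of these libraries overlapped, with slopes on length of -0.879 to -0.646 after 4 day swim and -0.777 to -0.646 after 3 day TAC, and after their removal H2-Aa (1.03, adjusted p = 0.0252) and H2-Eb1 (1.04, adjusted p = 0.0207) were still called and H2-Ab1 was just above the threshold (0.86, adjusted p = 0.0563). The authors' deposited table likewise marks H2-Aa (1.16, q = 0.00607) and H2-Eb1 (1.06, q = 0.0118), but not H2-Ab1 (0.835, q = 0.0558). Without 3 day TAC library 1, the lowest of its group for the chains, none of the 3 passed although the values were close (0.83 for H2-Ab1 and 1.0 for both H2-Aa and H2-Eb1), and without 4 day swim library 2 H2-Aa (1.08) and H2-Ab1 (0.86) were lost. H2-Ab1 was also lost without 3 day TAC library 2 (0.95), without 4 day swim library 3 (0.91) and with no filter (0.93). H2-Eb2, a neighbouring class II beta chain gene that is 69.8% identical to H2-Eb1 over the aligned bases, was called higher too (1.03 ± 0.30, adjusted p = 0.0398).

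A few markers of macrophages differed in the same direction between these groups. Of 19 markers, 3 were called higher in 4 day swim and 16 were not called, beside 5.2% of all genes called higher and 8.86% in either direction. The 3 were Folr2 (1.90 ± 0.32, limma adjusted p = 0.00148), a folate receptor of resident macrophages, C1qc (1.0 ± 0.26, adjusted p = 0.023) and Timd4. The list summed to 1800 to 2230 FPKM after 4 day swim and to 1230 to 1560 FPKM after 3 day TAC. Of 5 dendritic cell markers tested, Clec10a, a lectin of dendritic cells and macrophages, was called higher (1.12 ± 0.30, adjusted p = 0.0262) and Fscn1, an actin-bundling protein of mature dendritic cells, lower (-1.48 ± 0.21, adjusted p = 0.000327). Their part in the class II difference was not tested.

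Between times of the same treatment no member was called. For 10 day TAC against 3 day TAC, where 6.6% of all genes passed, none of 6 did (limma), 2 had an unadjusted p under 0.05 and the authors' deposited table marks none. For 10 day swim against 4 day swim, with 0.318% of genes called, none of 6 passed, 3 had an unadjusted p under 0.05 and the authors' table marks none. All 6 log2 fold changes were above 0 with time under TAC (0.13 to 0.60) and below 0 with time under swim (-0.79 to -0.09). Under swim Cd74 turned to 0.22 without the length and GC trends, and to 0.028 and 0.007 without 10 day swim library 2 or 4 day swim library 3. Under TAC H2-DMa turned to -0.07 without 10 day TAC library 1 and to -0.014 without 3 day TAC library 2. The difference between these changes, TAC minus swim, was called for H2-DMb1 (1.22 ± 0.34, adjusted p = 0.0416), 1 of 6 members beside 6.16% of all genes called in either direction and 4.31% higher, and was similar in size for H2-Aa (1.16 ± 0.39, adjusted p = 0.0829), H2-Ab1 (1.11 ± 0.36, adjusted p = 0.0702) and H2-Eb1 (1.07 ± 0.37, adjusted p = 0.086). The H2-DMb1 call was lost in 7 of the 12 fits that left out 1 library, with values of 1.02 to 1.25. H2-DMb2, its near copy, was called as well (1.21 ± 0.32, adjusted p = 0.0376). At 10 days, swim against TAC gave no call among 6 members (limma) beside 24.2% of genes, with 1 at an unadjusted p under 0.05 and none marked by the authors. Sham against sedentary fibroblasts gave none either, beside 0.0212% of genes, with 0 at an unadjusted p under 0.05 and none marked by the authors.

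Ciita, the coactivator on which constitutive and induced class II transcription depends, was barely expressed and was lower in the TAC and swim libraries. At chr16:10480071-10527564, it was listed at 0.0728, 0.0115 and 0.130 FPKM after 4 day swim, at 0.0347, 0.0209 and 0.0149 FPKM after 3 day TAC and at 0.316, 0.183 and 0.164 FPKM in sedentary fibroblasts. The 12 TAC and swim libraries spanned 0.0115 to 0.130 FPKM and the 7 sedentary, sham and MI libraries 0.131 to 0.316 FPKM, so that the sets met but did not overlap. Of 4663 genes that likewise missed the filter and were above 0 in every fibroblast library, 13.6% separated these sets in either direction and 12% with TAC and swim lower, and of the genes tested 29.8% separated them. It did not pass the filter of 1 FPKM in 2 libraries. Tested without that filter it was lower after 3 day TAC than in sham (-0.23 ± 0.05) and lower than in sedentary fibroblasts after 10 day TAC (-0.21 ± 0.05), 4 day swim (-0.19 ± 0.05) and 10 day swim (-0.19 ± 0.05; limma adjusted p 0.00258, 0.0016, 0.00377 and 0.00785), but was not called after MI (-0.09 ± 0.05, adjusted p = 0.362). The pseudocount of 1 compresses these values. On the authors' own scale the deposited table gives -3.14 for 3 day TAC (q = 0.00174), -2.03 for 10 day TAC (q = 0.0538), -1.61 for 4 day swim (q = 0.022) and -1.58 for 10 day swim (q = 0.0395). Taking the smallest steps between values of low genes as 1 fragment, the Ciita estimates came to about 4.2 to 40 fragments under TAC and swim, against 75 to 190 in sedentary, sham and MI fibroblasts. Its transcript is 6007 bases long, the longest of the members, and overlaps Dexi on the opposite strand.

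Long transcripts were lower in general in TAC and swim libraries. The slope of the log2 level per doubling of transcript length was -0.879 to -0.526 in the 12 libraries of TAC and swim, against -0.304 to -0.184 in the 7 of sedentary, sham and MI fibroblasts. Among fibroblasts the split of libraries coincides with the treatment groups, except that MI falls with the controls. Treatment and whatever sets the slope thus cannot be told apart. The 3 sedentary cardiomyocyte libraries had slopes of -0.721 to -0.628, inside the TAC and swim range. The comparison of cell types therefore also crosses this split. Without the length and GC trends all 6 members were still called lower in cardiomyocytes (limma, -4.34 to -1.61). Summed FPKM of all genes split the libraries the same way, higher in TAC and swim fibroblasts and in cardiomyocytes. What sets the slope was not tested. After each library's trend on length and GC content was removed, H2-DMa, whose transcript of 2005 bases is longer than those of the chains, was still higher after 3 day TAC (0.71), 10 day TAC (1.09), 4 day swim (1.43) and 10 day swim (0.89; limma adjusted p 0.0318, 0.000793, 9.54e-05 and 0.00687). H2-DMb1 was still called after 10 day TAC (0.86) and 4 day swim (0.99) only. Cd74 was then lower in all 4 comparisons (-1.52, -1.20, -1.20 and -0.97; adjusted p 0.00298, 0.00511, 0.00546 and 0.029).

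Some ratios within a library split the same sets. Such ratios need no scaling between libraries, but they keep each library's trend on length and GC content. Cd74 over H2-Aa was 0.394 to 0.886 in the 12 libraries of TAC and swim, against 1.07 to 1.51 in the 7 of sedentary, sham and MI fibroblasts, with the lowest values after 4 day swim (0.394 to 0.601). H2-Eb1 over H2-Ab1 was 0.401 to 0.603 against 0.646 to 0.733, and H2-DMa over H2-Aa 0.0323 to 0.071 against 0.0142 to 0.0303. None of these 3 ratios overlapped between the sets, a separation that 29.8% of tested genes showed by their levels. H2-DMb1 over H2-Aa did overlap, at 0.0314 to 0.071 against 0.0159 to 0.0335, as did H2-DMa over H2-DMb1, at 0.786 to 1.10 against 0.71 to 0.905. H2-Aa over H2-Ab1, the chains of one heterodimer, was 1.17 to 1.49 against 1.28 to 1.53 and overlapped. A ratio shows unequal change and not which member changed. H2-Eb1 and H2-Ab1 differ in length (1669 and 1212 bases) and GC content (51.8% and 57.3%). Without the trends their log2 fold changes over control were 0.06 and 0.08 after 4 day swim and -0.25 and -0.21 after 10 day swim. They were -0.34 and -0.37 after 10 day TAC and -0.90 and -0.66 after 3 day TAC. Cd74 (-1.20) and H2-DMa (1.43) still stood apart from H2-Aa (0.18) after 4 day swim.

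**Figure D3:**
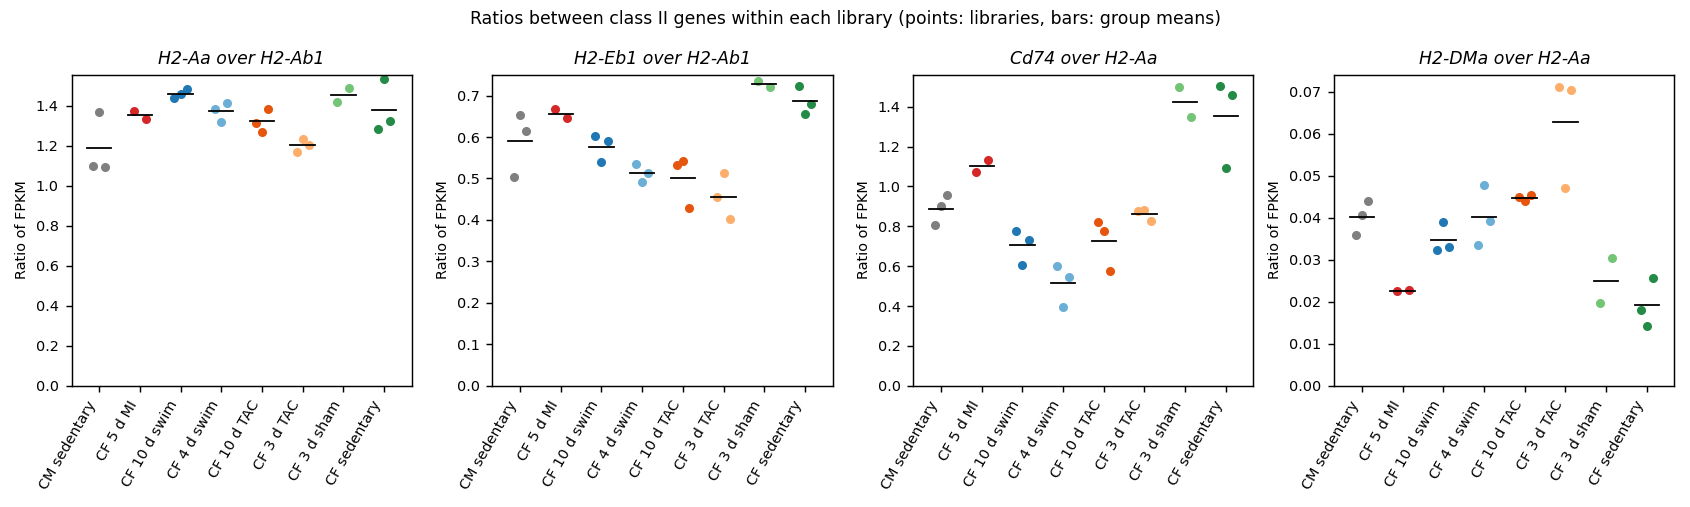
Ratio of FPKM between members within each library (axes from 0), by group, with points for libraries and bars for group means. H2-Aa over H2-Ab1 overlaps across groups, Cd74 over H2-Aa and H2-Eb1 over H2-Ab1 are lower, and H2-DMa over H2-Aa is higher, in TAC and swim fibroblasts than in sedentary, sham and MI fibroblasts. The trends on length and GC content are not removed.

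Across the 19 fibroblast libraries the members fell into blocks. On log2(FPKM + 1), H2-Aa and H2-Ab1 had r = 0.983 and H2-DMa and H2-DMb1 r = 0.986, while H2-Aa had r = 0.753 with H2-DMa and 0.44 with Cd74. Cd74 and H2-DMa had r = -0.0686. Within groups, on deviations from the group means, H2-Aa and Cd74 reached r = 0.815. These correlations describe libraries that also share group, depth and the length trend. Among 9425 genes the pattern nearest to the mean of H2-Aa, H2-Ab1, H2-Eb1 and Cd74 belonged to Lmo2 (r = 0.899), followed by H2-Eb2 (0.893), Cdip1 (0.873), Emr4 (0.854), Lilra5 (0.848) and Itm2b (0.834). Of these H2-Eb2 followed that mean most closely within groups (r = 0.964).

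Genes that process antigen for class II loading were more often called higher than lower, as were all genes. Of the 11 tested, 8 were higher and 1 lower after 4 day swim, 5 were higher after 10 day swim with no gene called lower, and 7 were higher and 2 lower after 10 day TAC. After 3 day TAC 3 were higher and 2 lower, and after 5 day MI 4 were higher. All genes were called in either direction in 64.5%, 43.6%, 65.7%, 57.1% and 11.3% in that order. The share of the 11 called was thus near that of all genes after 10 day swim and below it after 3 day TAC. Among all genes 3602 were higher and 2477 lower after 4 day swim, and 2823 and 1284 after 10 day swim. After 10 day TAC these counts were 3654 and 2541, after 3 day TAC 2953 and 2430, and after MI 842 and 221. The medians were 0.71, 0.51, 0.58, 0.11 and 0.53 on the log2 scale. Ifi30, the lysosomal thiol reductase that unfolds antigens, rose by 1.22 ± 0.27 after 4 day swim, 1.49 ± 0.27 after 10 day TAC and 1.32 ± 0.30 after MI (limma adjusted p 0.00073, 0.000134 and 0.00717). Ctss, the protease that trims the invariant chain, rose by 1.18 ± 0.29 after 4 day swim and by 1.91 ± 0.32 after MI (adjusted p 0.00165 and 0.000594). Cst3, a secreted cathepsin inhibitor, rose by 2.30 ± 0.23 after 4 day swim (adjusted p = 9.66e-07). Sppl2a, the protease that clears the remaining stub of Cd74, fell by 1.14 ± 0.32 after 10 day TAC and 1.01 ± 0.32 after 4 day swim (adjusted p 0.00451 and 0.00984). Once length and GC trends were taken out, 4 were higher after 4 day swim, 3 after 10 day swim, 5 after 10 day TAC, 2 after 3 day TAC and 5 after MI, and only 3 day TAC had a gene called lower (1).

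Most upstream regulators that were called were lower, but for the complex that binds the X and Y boxes the calls changed once the length and GC trends were taken out. Of 5 tested genes of this complex, 3 were lower after 3 day TAC, 3 after 10 day TAC and 3 after 4 day swim. In that order 57.1%, 65.7% and 64.5% of all genes were called in either direction, and 2430, 2541 and 2477 of 9425 were called lower. Rfx5, the X box factor, averaged 0.457 ± 0.185 FPKM after 4 day swim, 0.430 ± 0.170 FPKM after 3 day TAC, and 1.12 ± 0.291 FPKM in sedentary fibroblasts (SD, n = 3 each). Its log2 fold changes were -0.54 ± 0.14 for 4 day swim against sedentary and -0.46 ± 0.16 for 3 day TAC against sham (limma adjusted p 0.00314 and 0.0199). In the interferon gamma pathway, of 13 genes tested, 7 were lower after 3 day TAC, 9 lower and 1 higher after 10 day TAC, and 8 lower after 4 day swim. After 10 day swim 6 were lower, and after MI 2 were lower and 1 higher. Of all genes 57.1%, 65.7%, 64.5%, 43.6% and 11.3% were called in either direction in that order. Called lower were 2430, 2541, 2477, 1284 and 221 of 9425 genes. Irf1, a transcription factor induced by interferon, was lower after 3 day TAC than in sham (-1.20 ± 0.22, adjusted p = 0.000244), and lower than in sedentary fibroblasts after 4 day swim (-0.72 ± 0.20, adjusted p = 0.00455) and MI (-1.38 ± 0.22, adjusted p = 0.000427). Ifng itself was at most 0.0986 FPKM and listed at 0 in 9 of 22 libraries. Taking out the length and GC trends left 7, 8, 8, 5 and 2 of the interferon pathway genes called lower in the order above. Of the complex it left 1 lower after 3 day TAC, 2 after 10 day TAC and 0 after 4 day swim, while 1, 2 and 2 of its genes were then called higher. Creb1, which was lower after 4 day swim as measured (-0.58 ± 0.13, limma adjusted p = 0.00127), turned direction (0.46, adjusted p = 0.000868), and Rfx5 was at -0.06 there (adjusted p = 0.723).

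Of 7 costimulatory genes tested, 3 were lower after 3 day TAC and 3 after 10 day TAC, 1 was higher and 2 lower after 4 day swim, 1 was higher after 10 day swim, and 2 were higher and 1 lower after MI. Apart from MI, these shares were below those of all genes called in either direction, 57.1%, 65.7%, 64.5% and 43.6% in that order. By direction this did not hold under TAC, where 2430 and 2541 of 9425 genes were called lower after 3 and 10 days, a smaller share than 3 of 7. Cd86, the ligand that antigen-presenting cells offer to T cells, averaged 6.52 ± 3.65 FPKM after 4 day swim and 15.7 ± 4.62 FPKM in sedentary fibroblasts (SD, n = 3 each; -1.23 ± 0.38, limma adjusted p = 0.00945), and was lower after 3 day TAC than in sham (-2.08 ± 0.42, adjusted p = 0.000591). Of 10 class I genes, 3 were higher and 2 lower after 4 day swim, and the same counts held after 3 day TAC, while 3 were higher and 1 lower after 10 day TAC. These shares too were below those of all genes. The immunoproteasome subunits Psmb8, Psmb9 and Psmb10 were the 3 called higher in each. Without the length and GC trends 2 of the 10 were higher and 1 lower after 4 day swim, and 0 were called after 10 day TAC. After 3 day TAC 0 were then higher and 3 lower, and Psmb10 was at 0.44 (limma adjusted p = 0.0757). B2m, the light chain of class I, was lower after 3 day TAC than in sham (-1.03 ± 0.22, adjusted p = 0.00076). The heavy chain H2-K1 was called in the cardiomyocyte comparison alone among those against sedentary or sham, at -2.22 ± 0.22 (adjusted p = 1.22e-08).

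The labels of the cell types held in the data, and leukocyte markers were present in the fibroblast libraries. Fibroblast markers summed to 1180 to 3680 FPKM in fibroblast libraries and 123 to 293 FPKM in cardiomyocytes, and cardiomyocyte markers to 60.5 to 733 FPKM and 13000 to 16700 FPKM. Lyz2, a macrophage lysozyme, reached 861 FPKM and C1qa 534 FPKM. Of the dendritic cell markers 5 of 12 stayed below 1 FPKM in every library, among them Flt3, the receptor of their progenitors, at up to 0.294 FPKM, and Itgax reached 1.17 FPKM. Of B cell markers 8 of 10 stayed below 1 FPKM in every library, and all 13 T and NK cell markers did, with Cd79a at up to 1.23 and Ms4a1 at up to 0.285 FPKM, next to at least 113 FPKM of H2-Aa in each fibroblast library. No B, T or NK marker passed the filter. The ratio of H2-Aa to Csf1r was 6.33 to 15.6 in TAC and swim fibroblasts, 3.97 to 14.3 in sedentary, sham and MI fibroblasts and 8.39 to 11.2 in cardiomyocytes, and overlapped between all 3 sets. The ratio of H2-Aa to C1qa was 0.694 to 1.23 in TAC and swim and 1.05 to 4.73 in sedentary, sham and MI fibroblasts, and was 0.783 to 1.02 after 4 day swim, below the 2.32 to 4.73 of sedentary fibroblasts. Ptprc, the pan-leukocyte CD45, was lower after TAC and swim (0.377 to 3.23 FPKM) than in sedentary, sham and MI libraries (3.58 to 10.7 FPKM). Of all genes tested, 11% separated these sets with TAC and swim lower. The summed pan-leukocyte list was 307 to 755 FPKM and 173 to 469 FPKM in the same sets. Which cells of these preparations carried the class II RNA was not tested.

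**Figure D4:**
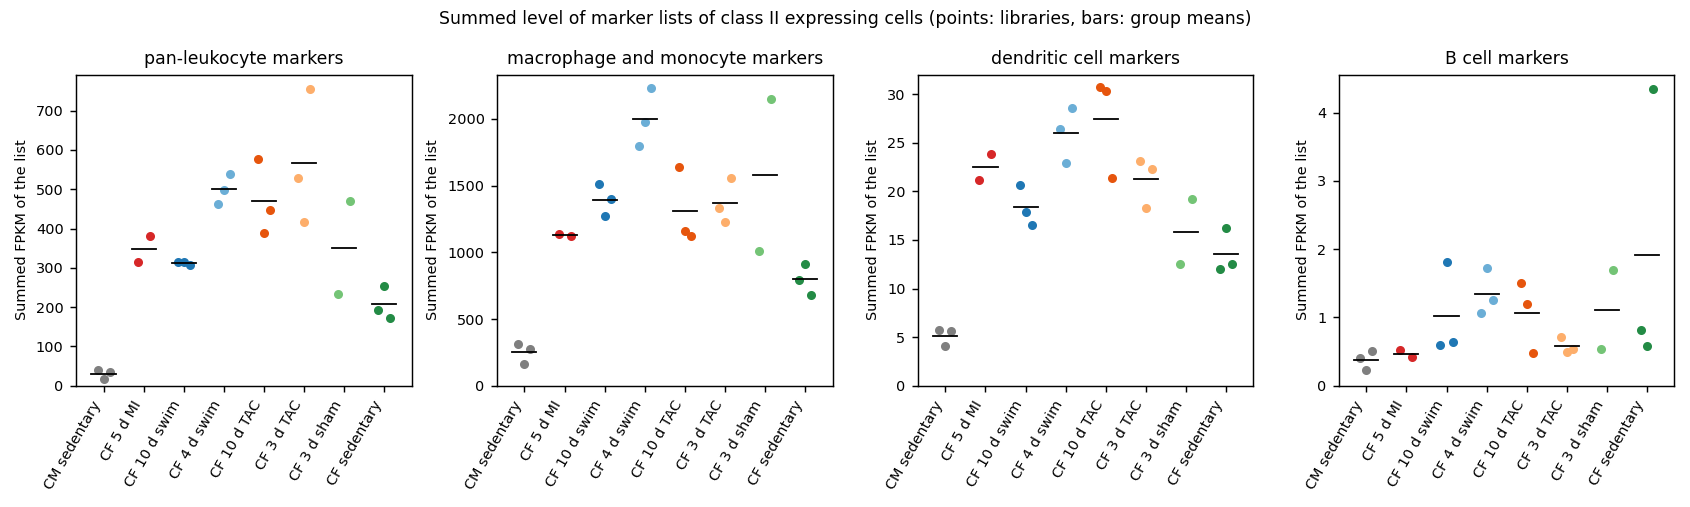
Summed FPKM (axes from 0) of 4 marker lists of leukocytes in each library, by group, with points for libraries and bars for group means. The macrophage and monocyte list reaches 1800 to 2230 FPKM after 4 day swim and 681 to 915 FPKM in sedentary fibroblasts, and the B cell list is at most 4.35 FPKM.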

How the data were processed

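Per the submitters' processing notes, FPKM were made with Cufflinks 2.0.2 on the mm10 build. No aligner, annotation or use of strand was stated in the labels. Deposited by the authors were FPKM per library and tables of their own comparisons with p-values and q-values, whose 8 condition names were matched to groups and checked against group means. FPKM carry no read totals, so depth is unknown; steps between values of 4829 low genes put relative depth at 1 to 3.51. The 44 columns of confidence bounds were not used. Of 27 symbols that read as dates, 25 were put right from their locus.

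From the FPKM, log2(FPKM + 1) was tested with limma 3.58.1 (R 4.3.3; trended, robust variance), for genes at 1 FPKM or more in at least 2 libraries. The 7 fibroblast groups (19 libraries, 9425 genes) shared 1 fit, and cardiomyocytes were compared in a fit of all 22 libraries (10371 genes). P-values were adjusted by Benjamini-Hochberg over all genes tested, and adjusted p under 0.05 was called. The test was checked on simulated data. Alternatives were a pseudocount of 0.1, no filter, median scaling, removal of length and GC trends (splines, 4 degrees of freedom; 22978 genes with a length), only the groups compared, a pooled control, a replicate block and leaving out libraries. Members and lists were chosen with earlier results of these data known; beyond the members, a fixed set of pathway and marker genes and up to 4 called genes of largest change per list and comparison are named, and any others were chosen after their values were seen. Some genes that these rules name are not reported here. Sequences are RefSeq's, and transcript lengths and identities come from GENCODE.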

Additional observations from a re-analysis of the deposited data

Results flagged for a closer look

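The change of H2-DMb1 with time differed between TAC and swim, by a test of that difference in the limma fit of all fibroblast groups: 10 day minus 3 day TAC exceeded 10 day minus 4 day swim by 1.22 ± 0.34 on the log2 scale (adjusted p = 0.0416). The gene averaged 14.9 ± 4.15 FPKM after 10 day TAC and 10.8 ± 3.17 after 3 day TAC, and 9.47 ± 1.03 after 10 day swim and 17.3 ± 4.12 after 4 day swim (SD, n = 3 each). With other processing it ranged from 0.96 without the length and GC trend to 1.30 with a pseudocount of 0.1, and it was lost under both of these and with no filter on low values. The early times are 3 days for TAC and 4 days for swim, so treatment and time cannot be told apart here.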

How the results depend on the processing

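Counts are members called. No called member changed direction under an alternative, but members not called did. Leaving out 1 library turned some of these, among them H2-DMa for 10 day against 3 day TAC. Removal of the length and GC trends turned H2-Aa (-0.18), H2-Ab1 (-0.37) and H2-Eb1 (-0.34) after 10 day TAC, the same chains after 10 day swim (-0.11, -0.21 and -0.25) and H2-Ab1 after 3 day TAC (-0.66), all above 0 as deposited. Counts that moved by more than 1.5 times, or to or from 0, were, for 5 day MI against sedentary (0), 2 with median scaling and 1 with the pooled control; for 5 day MI against 10 day TAC (5), 2 after trend removal; and for the TAC minus swim change over time (1), 0 with a pseudocount of 0.1, 0 with no filter, 4 with median scaling, 0 after trend removal and 3 with only the groups compared. Within that tolerance, 10 day TAC against sedentary (2) gave 3 with no filter, median scaling, the pooled control or trend removal; 4 day swim (4) gave 5 with no filter, median scaling or the pooled control and 3 after trend removal; 10 day swim (2) gave 3 with no filter or median scaling; 4 day swim against 3 day TAC (3) gave 2 with no filter or trend removal; and MI against 10 day TAC (5) gave 4 with no filter or only the groups compared and 6 with median scaling. With no filter Ciita was tested too. Of the 3 calls for 3 day TAC it then made 1, Cd74 being lost. With 1 library left out the counts ranged from 0 to 2 for 3 day TAC against sham (3), 2 to 4 for 10 day TAC against sedentary (2), 0 to 3 for MI against sedentary (0), 4 to 5 for 4 day swim (4) and 2 to 4 for 10 day swim against sedentary (2), 0 to 3 for 4 day swim against 3 day TAC (3), 3 to 5 for MI against 10 day TAC (5) and 0 to 1 for the change over time (1); they were 6 throughout for cardiomyocytes and 0 for sham against sedentary, 10 day against 3 day TAC, 10 day against 4 day swim and 10 day swim against 10 day TAC. Where this left a group with 1 library, it was assumed to vary like the others. The cause was not tested.

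Cardiomyocyte and fibroblast libraries share replicate numbers; deviations of same-numbered libraries had r = 0.243, 0.056 and 0.312, not every library matched its own number best, and with a replicate block 6 members were called, as without it. Over all genes, calls for MI against sedentary were 1706 with no filter and 558 with only the groups compared (1063 in the main fit), those for 4 day swim against 3 day TAC 435 with only the groups compared (835), and those for 10 day against 4 day swim 8 with a pseudocount of 0.1, 18 with no filter, 9 after trend removal and 0 with only the groups compared (30). Median scaling put the all-gene median of MI against sedentary at -0.0175, against 0.105 without it, and Cd74 was then called lower after 10 day TAC (-0.51) and 10 day swim (-0.63). Low FPKM such as those of Ciita are limited by depth.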
